A study of Mus musculus with 8 samples.

Results

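Droplet barcodes from the V-SVZ of 8 mice were split by the share of their unique molecular identifiers (UMIs, each the tag of 1 captured RNA molecule) that came from the 13 genes of the mitochondrial genome, named mt- in the files. A barcode was kept when at least 300 genes were detected in it. The nucleus-like pool of a mouse held the kept barcodes with under 10% of UMIs from mt- genes, and the mitochondria-rich pool held those with 40% or more. Of 37881 kept barcodes, 2051 were nucleus-like, 28840 were mitochondria-rich and 6990 lay between. The pools were thus chosen by the mt- share itself, a measured value. UMIs were summed per gene over each pool, the mt- genes were left out before scaling, and the 2 sums of a mouse were compared, which gave 8 pairs. The question was which transcripts were more abundant in one pool or the other, that is, which sat with barcodes poor in mitochondrial RNA and which with barcodes rich in it.

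Transcripts are made and spliced in the nucleus, and most mRNAs are then exported to the cytoplasm, where ribosomes translate them. Some RNAs stay behind, among them long noncoding RNAs that build nuclear bodies or coat a chromosome, pre-mRNAs whose long introns are still present, and mRNAs that keep a so-called detained intron. Mitochondria lie outside the nucleus, so RNA of the mitochondrial genome in a preparation of nuclei marks cytoplasmic material, either carried along with a nucleus or free in the suspension.

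The mice carried tamoxifen-inducible Cre under the Nestin promoter, which is active in neural stem and progenitor cells, and a tdTomato reporter at Rosa26 that Cre turns on. Pups were given the drug and the ventricular-subventricular zone (V-SVZ), the stem cell niche beside the lateral ventricles, was dissected from brains at P90. In 4 mice, written Tsc2wt/wt and labelled Tsc2 wild, Tsc2 was intact, and in 4, written Tsc2mut/mut and labelled Tsc2 mutant/mutant, both copies were conditional. Cells were dissociated with trypsin and opened with a Dounce homogenizer in a buffer that held cycloheximide, and tdTomato-positive nuclei were sorted into 10x Genomics 3′ libraries, 1 per mouse. Reporter-positive cells include every lineage that recombined stem cells gave rise to, and a sort for tdTomato does not by itself keep out material stuck to a nucleus. Tsc2 had 20.1, 21.2, 19.3 and 22.3 CPM (counts in 1e6 UMIs outside the mt- genes) in the kept barcodes of Tsc2wt/wt replicates 1 to 4 and 19.6, 21.5, 18.3 and 15.2 in those of Tsc2mut/mut replicates 1 to 4, on 42 to 138 UMIs per mouse. A 3′ library reads the end of the transcript, so these levels do not check the deletion.

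The libraries held 11182335 to 36773832 UMIs, and 42.8% to 49.2% of them came from mt- genes. A mouse gave 131 to 457 nucleus-like barcodes (median 212.5), 3.23% to 9.57% of its kept barcodes, and 1429 to 7218 mitochondria-rich ones, 71.1% to 81.4%. Median UMIs per barcode were 2629 to 5472 in the nucleus-like pools and 885 to 1335 in the mitochondria-rich ones, and median genes were 1410 to 1716.5 against 341 to 419. The nucleus-like sums held 538156 to 1790844 UMIs outside the mt- genes and the mitochondria-rich sums 1004096 to 3654051, so the 2 kinds of sum overlapped in depth although the barcode numbers did not. The same barcode sequence was kept in more than 1 library 166 times, 104 times as mitochondria-rich in more than 1 and never as nucleus-like in more than 1.

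**Figure D1:**
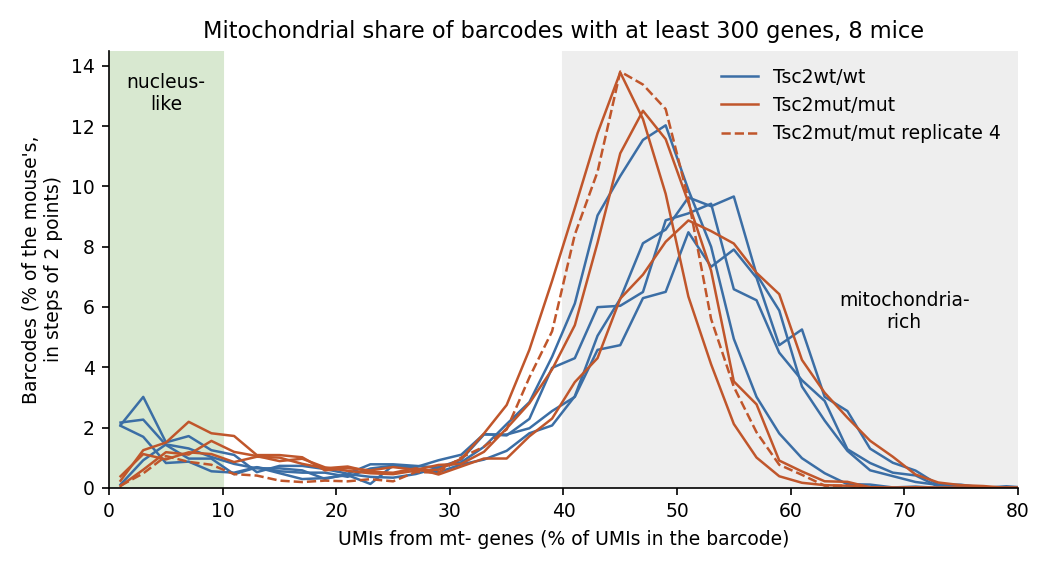
Kept barcodes by the percent of their UMIs from mt- genes, with the limits of the nucleus-like (under 10%) and mitochondria-rich (40% or more) pools marked. Of 37881 barcodes, 28840 lie at or above the upper limit and 2051 below the lower one.

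The mt- genes chose the pools, and their values are given as a description only. In 1e6 of all UMIs, mt-Co3, a subunit of cytochrome oxidase, had 6998, 10062 and 12971 (lowest, median and highest mouse) in the nucleus-like pools and 92879, 98293 and 102296 in the mitochondria-rich ones. The whole mt- share of the summed UMIs was 3.54% to 6.04% against 47.0% to 54.2%. At the lower limit, 233 barcodes with 9% to under 10% of mt- UMIs had 24737 CPM of Malat1 and 194 with 10% to under 11% had 24200. At the upper limit, 942 barcodes with 39% to under 40% had 1141 CPM of Malat1 and 1099 with 40% to under 41% had 1218. Here and below, a level given as 3 values is the lowest, median and highest of the 8 mice. Barcodes just inside and just outside each limit had close values, so neither limit lay at a break in the range. Midway between the limits barcodes were fewer. Tsc2mut/mut replicate 3, for example, had 158 at 8% to under 10%, 46 at 24% to under 26% and 1399 at 44% to under 46%.

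The name nucleus-like did not hold for every barcode below 10%. After the values were seen, 314 of the 2051 barcodes were found to give at least 1% of their UMIs to Ttr, the thyroid hormone and retinol carrier that choroid plexus epithelium makes in large amounts, and only 9 of the 2051 lay between 0.2% and 5%. These Ttr-rich barcodes had a median of 6309 UMIs, and 235 of them (74.8%) had no UMI of Malat1, a nuclear RNA of nearly all cells, against 3 of the 1737 others. Malat1 made up 0.0183% of their summed UMIs and 3.90% of those of the other nucleus-like barcodes. Markers of choroid plexus made up 26.5% of the UMIs of the Ttr-rich barcodes, of which Ttr itself was 25.2%, and 0.0468% in the others, and without Ttr 1.30% and 0.0425%. Ribosomal protein genes made up 10.7% and 1.26%, and nuclear-encoded respiratory chain subunits 9.14% and 0.504%. Barcodes below 10% of mt- UMIs were therefore of 2 kinds, one with little Malat1 and much mRNA of ribosomal proteins.

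Ttr-rich barcodes numbered 27, 13, 1 and 26 in Tsc2wt/wt replicates 1 to 4 and 23, 13, 85 and 126 in Tsc2mut/mut replicates 1 to 4. In Tsc2mut/mut replicate 4 they were 126 of 135 barcodes and 95.6% of the UMIs, so that this nucleus-like pool stood apart from the other 7. Each result below is given with all barcodes and, where it differs, without the Ttr-rich ones, which leaves 9 barcodes in Tsc2mut/mut replicate 4. Cell types were not equally present in the pools either, and a difference between pools in cell types cannot be told apart from a difference between nucleus and cytoplasm within a type. Likewise, fewer barcodes of a type and less RNA per barcode cannot be told apart in these sums.

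**Figure D2:**
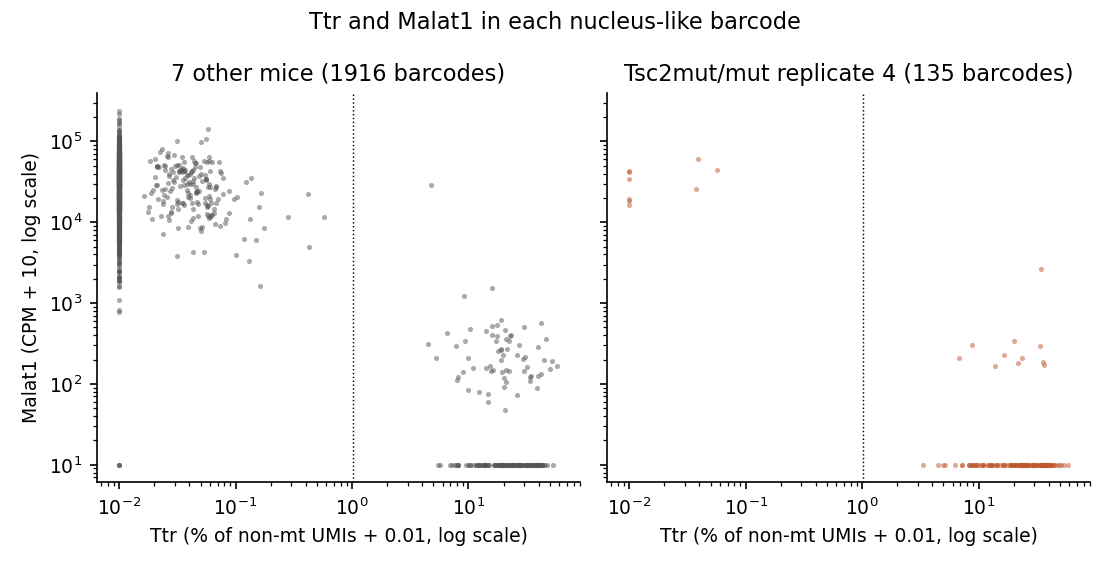
Each point is a nucleus-like barcode, by its Ttr as a percent of UMIs and its Malat1 CPM. The 314 barcodes with at least 1% of Ttr lie apart from the 1737 others, and 235 of them have no Malat1 UMI.

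Marker lists differed between pools as follows. The 6 excitatory neuron markers summed to 90.3, 180.1 and 496 CPM in the nucleus-like pools and to 5470, 6138 and 8679 in the mitochondria-rich ones, with no overlap. Astrocyte and neural stem cell markers summed to 1437, 15796 and 20002 CPM against 14111, 16425 and 17804, and the low value was Tsc2mut/mut replicate 4. Choroid plexus markers were at 14282, 57250 and 265000 CPM against 37.2, 367 and 1006. Ependymal markers had 147, 1509 and 3287 CPM against 61.0, 85.4 and 124, endothelial markers 16.2, 326 and 942 against 3.17, 8.04 and 31.3, and oligodendrocyte markers 1095, 2813 and 4077 against 4381, 4882 and 6185. A sum follows its most abundant members: by the test described next, 5 of 9 oligodendrocyte markers were higher and 3 lower in the nucleus-like pool (median log2 fold change 1.12), and 1 of 12 astrocyte markers was higher and 8 lower (-1.71). No marker list had a gene at 0 in every mouse, and the part of cell types in the results below was not tested.

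With all barcodes, 10043 genes passed the filter on low counts. In the nucleus-like pool 3037 of them (30.2%) were higher and 3039 (30.3%) lower by at least 2-fold at an adjusted p under 0.05 in edgeR's quasi-likelihood test with mouse as a block, and 7798 differed at that p at any fold. Without the Ttr-rich barcodes 3226 of 9779 (33.0%) were higher and 3598 (36.8%) lower. Of 9438 genes tested both ways, 2594 of the 2700 called higher with all barcodes were called higher again, 2842 of the 2962 called lower were called lower again, and 14 were called in opposite directions. The median log2 fold change over all genes was -0.05 with TMM scaling, the method that centres on the bulk of genes, and 0.53 when sums were scaled by their totals, which gave 4141 higher and 1984 lower. Since around 3 in 10 genes were called in each direction, the counts within gene lists below are read against those shares.

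Long noncoding RNAs known to stay in the nucleus were mostly higher in the nucleus-like pool. Of 16 on the list 14 were tested, 11 were higher and 2 lower, with a median log2 fold change of 3.05 against -0.05 over all genes, and 13 of 15 were higher and 2 lower without the Ttr-rich barcodes. Malat1, a component of nuclear speckles that lies at chr19:5795690-5802672 (GRCm38) as a single exon of 6983 bases, had 1531, 27573 and 42670 CPM in the nucleus-like pools and 316, 574 and 1268 in the mitochondria-rich ones. The pools did not overlap, the lowest nucleus-like value was that of Tsc2mut/mut replicate 4 and the other 7 mice were at 25529 or above. Its log2 fold change was 4.72 ± 0.59 (SE, adjusted p = 1.24e-05), and 5.21 ± 0.29 without the Ttr-rich barcodes (adjusted p = 2.62e-14).

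Xist, the RNA that coats the inactive X chromosome (chrX:103460366-103483254), had 84.1, 1739 and 2016 CPM in the nucleus-like pools and 19.0, 26.2 and 74.4 in the mitochondria-rich ones. Again the pools did not overlap, and the lowest nucleus-like value was that of Tsc2mut/mut replicate 4. The log2 fold change was 4.73 ± 0.46 (adjusted p = 1.46e-06). Neat1, the scaffold of paraspeckles, had 9.82, 249 and 297 CPM against 0.996, 5.50 and 11.8, and the pools overlapped through Tsc2mut/mut replicate 4 alone (log2 fold change 4.39 ± 0.42, adjusted p = 1.41e-06). Kcnq1ot1, an imprinted RNA that silences its neighbours, had 16.8, 267 and 327 CPM against 0.792, 5.44 and 9.84 (4.67 ± 0.52, adjusted p = 4.40e-06).

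Meg3, an imprinted RNA of neurons among other cells, was higher by a log2 fold change of 2.93 ± 0.69 (adjusted p = 0.00186), with 2.80, 461 and 1201 CPM against 19.9, 27.8 and 45.7, and the pools overlapped. Rian, which is transcribed from the same imprinted cluster and hosts small nucleolar RNAs, went the other way. It had 8.41, 56.3 and 122.6 CPM in the nucleus-like pools and 111, 124 and 166 in the mitochondria-rich ones (-1.90 ± 0.37, adjusted p = 4.40e-04). Peg13, an imprinted RNA of the brain, was lower as well, at 2.71, 4.43 and 7.01 CPM against 30.1, 36.0 and 41.8 with no overlap (-3.51 ± 0.24, adjusted p = 1.67e-07). Snhg14 was tested and not called at a log2 fold change of 0.56 (adjusted p = 0.227).

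Transcripts of splicing factors and others known for detained introns were higher in 17 of 20 cases and lower in none, with a median log2 fold change of 1.97, and 18 of 20 were higher without the Ttr-rich barcodes, with a median of 2.27. Pnisr, which codes for an arginine- and serine-rich nuclear protein (chr4:21847583-21876475), had 28.0, 421 and 622 CPM in the nucleus-like pools and 14.9, 18.7 and 25.7 in the mitochondria-rich ones. The pools did not overlap (3.61 ± 0.39, adjusted p = 3.21e-06). Clk1, a kinase of splicing factors, had 15.4, 192 and 253 CPM against 6.12, 10.0 and 14.0 (3.42 ± 0.35, adjusted p = 2.29e-06). Ogt, the enzyme that adds O-linked N-acetylglucosamine to proteins, was higher by 2.87. Luc7l2, a U1 snRNP-associated factor, had 114, 682 and 851 CPM against 82.7, 96.6 and 121 (2.03 ± 0.31, adjusted p = 6.41e-05), and Son, a scaffold of speckles, had 219, 665 and 787 CPM against 111, 133 and 164 (1.61 ± 0.26, adjusted p = 7.96e-05). Srrm2, Srsf5 and Zranb2 were not called, at log2 fold changes of 0.60, 0.87 and 0.03.

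Genes of neural adhesion and synapses with very long introns were higher in 19 of 22 cases, with a median log2 fold change of 2.87 and none lower, and in 21 of 22 without the Ttr-rich barcodes, with a median of 3.39. Summed, the 22 genes took 5.97% of the UMIs outside the mt- genes of the median nucleus-like pool and 0.306% of the median mitochondria-rich one. Gpc5, a heparan sulfate proteoglycan of astrocytes that spans chr14:115092215-116525179, had 229, 6534 and 8593 CPM against 99.6, 147 and 191. No overlap was seen, although Tsc2mut/mut replicate 4 was far below the other 7, which had 4732 or more (4.43 ± 0.49, adjusted p = 4.50e-06). Lsamp, a cell adhesion protein of the limbic system (chr16:39984361-42181679), had 402, 12342 and 14520 CPM against 241, 329 and 446, with an overlap from that same mouse (4.10 ± 0.50, adjusted p = 1.05e-05). Kcnip4 (4.03) and Pcdh9 (3.84) were also higher, while Dlg2, Cntnap2 and Dpp10 were not called, at 0.49, 0.81 and 1.14.

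**Figure D3:**
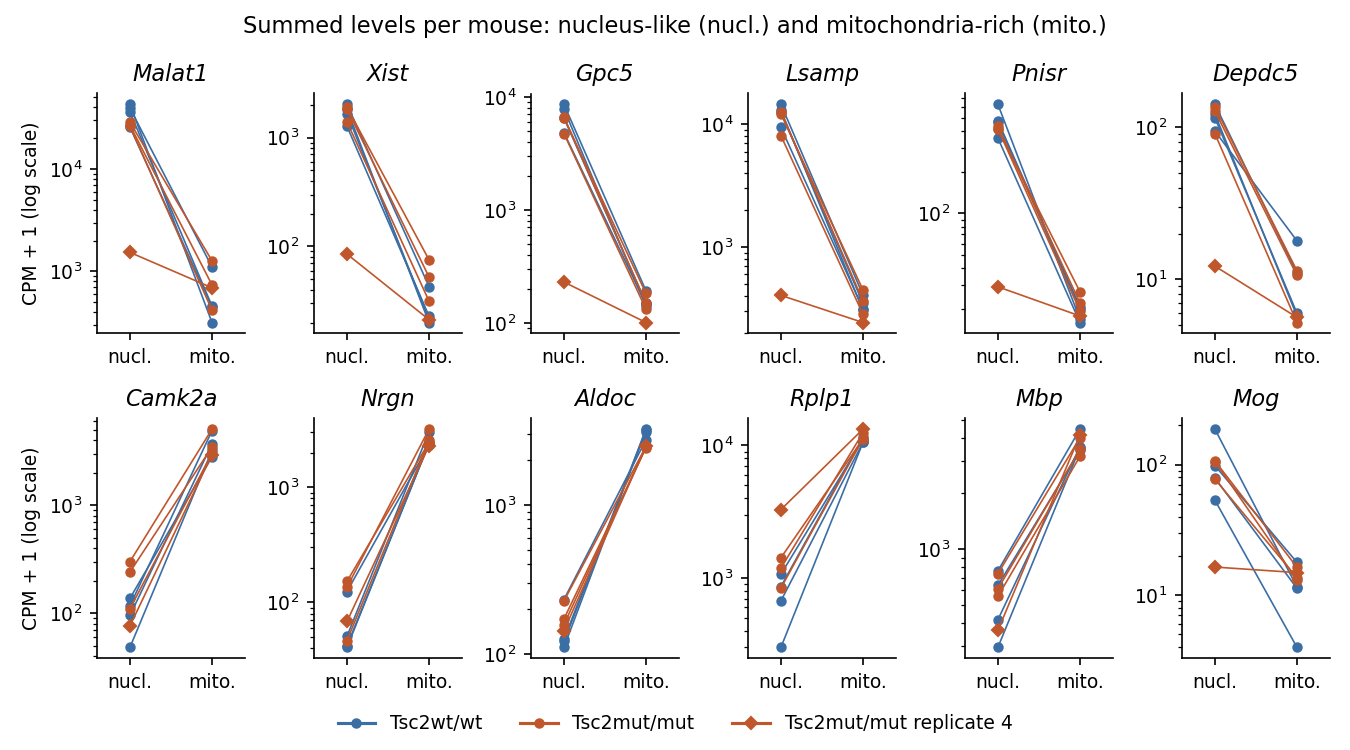
CPM (log axis) of 12 genes in the nucleus-like and mitochondria-rich pool of each mouse, with the 2 pools of a mouse joined by a line and Tsc2mut/mut replicate 4 drawn as diamonds. Malat1, Xist, Gpc5, Lsamp, Pnisr and Depdc5 are higher in the nucleus-like pools, Camk2a, Nrgn, Aldoc, Rplp1 and Mbp are lower, and Mog is higher although it is a myelin gene like Mbp.

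Neuronal mRNAs that are carried into dendrites or work at synapses were lower in the nucleus-like pool. None of 22 was higher and 21 were lower, with a median log2 fold change of -4.56 that stayed at -4.59 without the Ttr-rich barcodes. Camk2a, the kinase of excitatory synapses whose mRNA is translated in dendrites, had 47.6, 113 and 300.0 CPM in the nucleus-like pools and 2796, 3329 and 5043 in the mitochondria-rich ones. No pool of one kind reached the other (-5.41 ± 0.40, adjusted p = 2.29e-07). Nrgn, the calmodulin-binding protein neurogranin (chr9:37544492-37552904), had 39.8, 58.5 and 151 CPM against 2289, 2433 and 3193 (-5.70 ± 0.43, adjusted p = 2.61e-07).

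Ddn, the postsynaptic protein dendrin, had 4.85, 17.9 and 45.8 CPM against 681, 715 and 822 and a log2 fold change of -5.77. Camk2n1, an inhibitor of the Camk2 kinases, was the most abundant of these mRNAs in the mitochondria-rich pools, at 6713, 7885 and 10276 CPM against 203, 324 and 524 (-5.17). Shank1 (-5.27), a scaffold of the postsynaptic density, Kif5a (-5.21), a motor of axonal transport, Arc (-4.78), an immediate early gene, and Map2 (-2.41), a dendritic microtubule protein, were lower, and Homer1 (-0.84) was not called. Camk2a and Nrgn are also among the 6 excitatory neuron markers given above, so the sum of those markers is not separate from this list. In contrast, 2 other neuronal marker lists had higher medians in the nucleus-like pools. Markers of inhibitory neurons or neuroblasts summed to 36.5, 872 and 1336 CPM against 209, 279 and 400, the lowest in Tsc2mut/mut replicate 4. Markers of striatal projection neurons summed to 178, 414 and 552 CPM against 91.4, 181 and 223. In these sums the number of neuronal barcodes and the place of the RNA cannot be told apart.

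Ribosomal protein mRNAs, which are short, abundant and translated on cytoplasmic ribosomes, were lower in the nucleus-like pool in 77 of the 79 genes tested of 82 and higher in none, with a median log2 fold change of -3.32. Without the Ttr-rich barcodes all 79 were lower and the median was -5.02. Rplp1, a protein of the ribosomal stalk (chr9:61913284-61914542), had 299.2, 964 and 3284 CPM in the nucleus-like pools and 10530 to 13278 in the mitochondria-rich ones, with a median of 11218. The highest nucleus-like value was that of Tsc2mut/mut replicate 4, and there was no overlap (-4.09 ± 0.46, adjusted p = 4.47e-06). Rpl41 had 383, 1773 and 6324 CPM against 7829, 8401 and 9033, and its log2 fold change went from -2.93 to -5.28 when the Ttr-rich barcodes were left out. Only Rps27l (-0.02) and Rpl7l1 (-0.77), both relatives of ribosomal proteins outside the standard ribosome, were not called.

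Transcripts of ribosomal proteins start with a run of pyrimidines, the TOP motif, through which mTORC1, the kinase complex that Tsc2 restrains, controls their translation. A short pyrimidine stretch, CTTTCC, was searched from 30 bases before to 20 after the RefSeq start of each gene on GRCm38.p6. It lay on the transcribed sense strand in 10 of 59 ribosomal protein genes with a promoter entry (16.9%) and in 778 of 27025 promoters in all (2.88%), and on either strand (as CTTTCC or GGAAAG) in 11 of 59 (18.6%), 1432 of 27025 (5.30%) and 1 of 65 respiratory chain genes (1.54%). Over all genes called it did not go with the direction, at 3.07% of those higher and 3.22% of those lower in the nucleus-like pool on the sense strand. Below are 4 of the 10 windows, written 5′ to 3′ on the strand of the gene with CTTTCC in capitals, as examples of the starts of ribosomal protein mRNAs. They come from chr11:114668550-114668599 (plus strand), chr16:33056452-33056501 (plus), chr3:90213629-90213678 (minus) and chr7:45128726-45128775 (minus).
Rpl38: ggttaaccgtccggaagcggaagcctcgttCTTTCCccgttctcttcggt
Rpl35a: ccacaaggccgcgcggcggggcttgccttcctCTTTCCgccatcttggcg
Rps27: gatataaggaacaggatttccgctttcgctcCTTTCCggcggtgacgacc
Rpl13a: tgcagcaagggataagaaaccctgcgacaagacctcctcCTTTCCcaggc
The log2 fold changes of Rpl38, Rpl35a, Rps27 and Rpl13a were -3.73, -3.66, -3.47 and -3.42. The match describes letters in these windows and is not a measured start site.

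Translation factors followed the ribosomal proteins, with 16 of 18 lower, none higher and a median of -2.44. Eef1a1, the main elongation factor, had 273, 769 and 2551 CPM against 2553, 3192 and 3548, and the highest nucleus-like value lay just below the lowest mitochondria-rich one (-2.54 ± 0.45, adjusted p = 1.97e-04). Tpt1, another TOP mRNA, was lower by -2.46 and Eif3f, a subunit of initiation factor 3, by -3.60, while Eif4a1 (-0.77) was not called, nor was Eif4b. Without the Ttr-rich barcodes all 18 were lower with a median of -4.01, and Eef1a1 reached -4.61.

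Nuclear-encoded subunits of the respiratory chain and ATP synthase, which are imported into mitochondria as proteins, were lower in 69 of 81 cases and higher in 1. Their median moved from -1.83 to -4.48 without the Ttr-rich barcodes, when 78 of 79 were lower and none higher. Cox8a, a subunit of cytochrome oxidase, had 377, 1641 and 5984 CPM against 7520, 8466 and 9787 (-3.04 ± 0.48, adjusted p = 7.95e-05), and -5.31 without the Ttr-rich barcodes. The exception, Cox6b2, had 11.1, 73.4 and 360.4 CPM against 6.67, 11.6 and 17.0 (2.03 ± 0.52, adjusted p = 0.00319), and 348 CPM in the summed Ttr-rich barcodes.

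Of 16 glycolytic enzymes 13 were lower and none was higher by 2-fold, with a median of -1.47, and 15 were lower with a median of -3.29 without the Ttr-rich barcodes. Gapdh had a log2 fold change of -2.28 and Ldhb of -1.17, against -4.82 and -3.46 without those barcodes. Pfkp, a phosphofructokinase, differed the other way by less than 2-fold (0.87, adjusted p = 5.43e-04). Among mRNAs of ferritin, actin, tubulin and thymosin all 13 were lower, with a median of -2.91 and, without the Ttr-rich barcodes, 12 lower and a median of -3.98. Fth1, the ferritin heavy chain, had 827, 2529 and 6443 CPM against 18075, 19011 and 22888 with no overlap (-3.59 ± 0.42, adjusted p = 6.86e-06). Tmsb4x (-4.11), an actin-binding peptide, and Actb (-1.79) were lower as well.

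Astrocyte mRNAs were mostly lower, but to very different degrees. Of 23 genes 20 were lower and none higher, with a median of -2.39, and the fold changes ran from large to absent. Over 24 fits of nucleus-like over mitochondria-rich pools, 14 to 21 were called lower and 0 to 2 higher, with medians from -2.72 to -1.60. Aldoc, the glycolytic enzyme that marks astrocytes (chr11:78322968-78327781), had 110.3, 150.05 and 231 CPM in the nucleus-like pools and 2409, 2599 and 3215 in the mitochondria-rich ones (-4.67 ± 0.36, adjusted p = 2.61e-07). Apoe, the lipid carrier, had 792, 1187 and 2859 CPM against 7207, 7700 and 9014, with no overlap (-3.17 ± 0.38, adjusted p = 6.99e-06).

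Slc1a2, the main glutamate transporter, had 358, 4039 and 5121 CPM against 7650, 9042 and 9958 and a smaller log2 fold change of -2.13 ± 0.40 (adjusted p = 3.52e-04). The metallothioneins Mt1 (-4.24) and Mt3 (-3.00) and the secreted protease inhibitor Cst3 (-3.19) were lower. The second glutamate transporter, Slc1a3, was not called at 0.08 (adjusted p = 0.843), nor was the bicarbonate transporter Slc4a4 at 0.38 (adjusted p = 0.399), nor Plpp3, a lipid phosphatase, at -0.74. Aldoc and Slc4a4, both expressed by astrocytes, thus lay at opposite ends of this list.

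Myelin mRNAs were divided. With all barcodes 6 of 15 were higher and 4 lower, shares near those of all genes, and the median was 0.28. Mbp, whose mRNA is carried into the processes of oligodendrocytes and translated there, had 295, 584 and 764 CPM against 3165, 3545 and 4440 with no overlap (-3.36 ± 0.31, adjusted p = 1.06e-06). Mobp, another transported mRNA, was lower by -2.56, and Qdpr, an enzyme of tetrahydrobiopterin recycling, by -2.98. In contrast, Mog, a surface protein of myelin, had 15.4, 87.7 and 186 CPM against 2.99, 12.3 and 16.9, and was higher by 2.23 ± 0.30 (adjusted p = 2.29e-05).

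Mag, Trf, Ugt8a and Aspa were higher by 2.11, 2.27, 2.13 and 2.14. The median of this list was below 0 in 5 of 24 fits of nucleus-like over mitochondria-rich pools. It ran from -2.86 to 1.66 over these fits, and the number of genes called higher from 0 to 9. The highest median, 1.66, was that without the Ttr-rich barcodes and with scaling by totals. Leaving out the Ttr-rich barcodes alone gave 0.86, with 7 genes higher and 5 lower. Scaling by totals alone gave 0.87, with 7 higher and 3 lower. Medians below 0 came from no filter on low counts (-0.05), limits of 5% and 50% (-0.67) and 500 to 1500 UMIs outside the mt- genes (-0.96). Barcodes chosen by astrocyte markers gave -2.64, and -2.86 with Tsc2mut/mut replicate 4 left out. Myelin mRNAs made up 1.14% of free RNA, 0.610% of the mitochondria-rich pool and 0.367% of the nucleus-like one without Ttr-rich barcodes. Free RNA is the name used for the 20000 barcodes with the fewest UMIs in each library, and the limits of that name are given below.

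Genes of the TSC complex and the mTORC1 pathway, which link nutrients and growth factors to translation, were split by member. Of 36 genes 33 were tested, 12 were higher and 11 lower, shares close to the 30.2% and 30.3% of all genes, with a median of -0.64 that was -0.05 with scaling by totals. Depdc5, a subunit of GATOR1, which holds mTORC1 inactive (chr5:32863701-32994236), had 11.2, 117 and 140.0 CPM against 4.21, 7.31 and 16.9, overlapping through 1 mouse (3.07 ± 0.29, adjusted p = 1.19e-06). Rictor (2.50) of mTORC2, Rptor (2.38) of mTORC1, the Rag GTPase Rragb (2.39), the S6 kinase genes Rps6kb2 (2.17) and Rps6kb1 (1.83) and Mtor itself (1.18) were higher.

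Tsc1 and Tsc2, partners in 1 complex, were on opposite sides. Tsc1 had 19.6, 70.2 and 100.3 CPM in the nucleus-like pools and 14.9, 18.6 and 26.9 in the mitochondria-rich ones (1.15 ± 0.20, adjusted p = 1.69e-04). Tsc2, at chr17:24595816-24632630, had 7.01, 14.1 and 20.4 CPM against 19.1, 21.8 and 25.6 (-1.27 ± 0.17, adjusted p = 2.21e-05). Both overlapped between pools, Tsc1 through Tsc2mut/mut replicate 4 alone. Akt1 (-2.57), the lysosomal anchors Lamtor1 (-2.15) and Lamtor2 (-2.12), and Rragd (-1.99) were lower too. Rheb, the GTPase on which the TSC complex acts, was not called at -0.89, and Eif4ebp1, Sesn2 and Castor1 had too few counts to be tested.

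**Figure D4:**
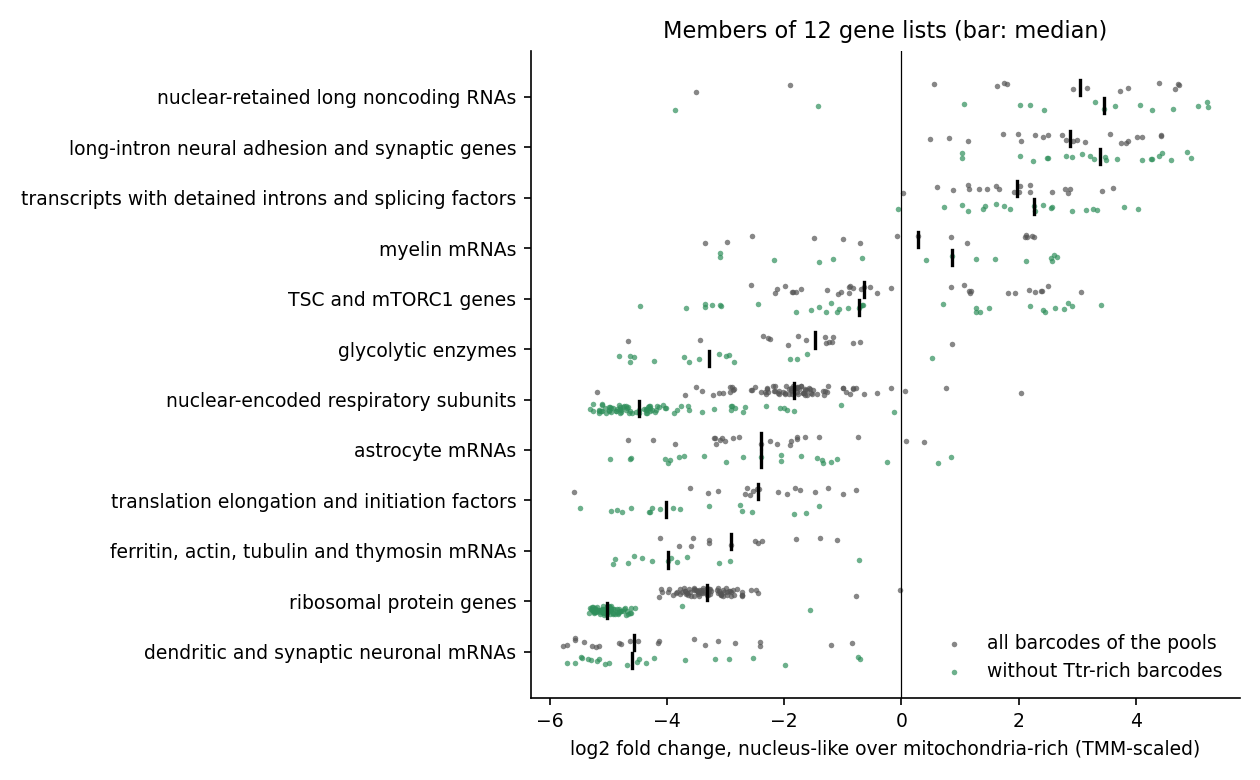
log2 fold change of nucleus-like over mitochondria-rich pools for each tested gene of 12 lists, with all barcodes in grey and without Ttr-rich barcodes in green, and a bar at each median. The medians of the lists of nuclear RNAs and long-intron genes lie above 0, though single members lie below. Those of ribosomal protein, respiratory chain and dendritic mRNAs lie below 0, where leaving out the Ttr-rich barcodes moves the ribosomal protein median from -3.32 to -5.02.

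Features of the gene that took no part in choosing the pools went with the direction. Genes higher in the nucleus-like pool had a median span of 79.7 kb, against 12.3 kb for genes lower there and 30.3 kb for all 10043. The median transcript was 4132 bases against 2270, the median number of exons 14 against 6, the intronic share of the span 90.9% against 73.2% and the GC content of the transcript 47.7% against 53.0%. Of 940 genes under 5 kb, 4.04% were higher and 71.9% lower, and of 208 genes of 500 kb or more, 82.2% were higher and 1.92% lower. Across the genes, the log2 fold change and log10 span had a Pearson r of 0.549 and a Spearman rho of 0.572 (n = 10043 genes from the same 16 sums, which are not independent), and 0.661 by both without the Ttr-rich barcodes.

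Gene class was set beside the calls as well. Of 9740 protein-coding genes 30.1% were higher and 29.9% lower, and of 301 long noncoding genes 34.2% were higher and 40.9% lower with all barcodes. Without the Ttr-rich barcodes 164 of 336 long noncoding genes (48.8%) were higher and 122 (36.3%) lower, against 32.4% and 36.8% of 9441 protein-coding genes. No test compared the classes. Genes with a single exon were rarely higher: of 204, 5.88% were higher and 76.5% lower, with a median log2 fold change of -2.12. Malat1 is a single-exon gene that was among the 12 higher ones.

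**Figure D5:**
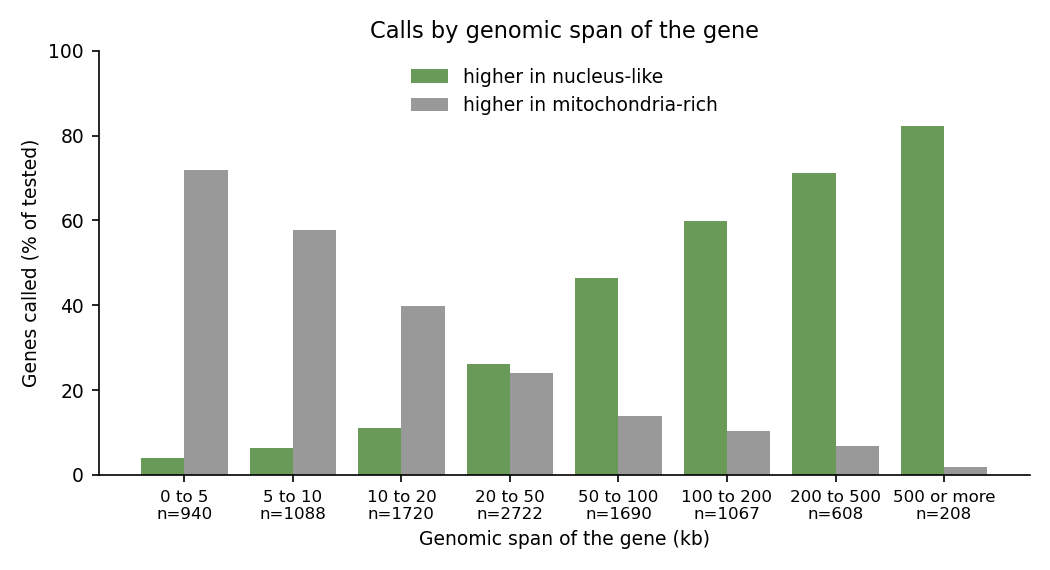
Percent of tested genes that were higher and lower in the nucleus-like pool, by genomic span in kb. The share higher goes from 4.04% below 5 kb to 82.2% at 500 kb or more, and the share lower from 71.9% to 1.92%.

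By the rule for named genes, the largest fold changes upward with all barcodes belonged to genes of the Ttr-rich barcodes. These were 2900040C04Rik (8.23), Ttr itself (7.92), Ecrg4 (6.73), Calml4, Gm29538, Defb11, the keratin Krt18, Smim22, Sostdc1, a secreted inhibitor of Wnt and BMP signals, and the potassium channel Kcnj13. The last 7 had at most 2.89 CPM in any mitochondria-rich pool, so that their folds rest on few counts and are not printed beside them. Ttr had 13234, 53484 and 254014 CPM in the nucleus-like pools and 7.92, 249 and 776 in the mitochondria-rich ones. Without the Ttr-rich barcodes, which were chosen by Ttr itself, its fold change was bound to fall and was -3.14. Leading genes then were Gm20713, with at most 0.996 CPM in any mitochondria-rich pool, 4930420G21Rik (5.48), Gm12239 (5.35) and Lncpint (5.33), a long noncoding RNA, followed by Xist (5.22) and Malat1 (5.21). At the other end, again with all barcodes, stood Cdk5r2 (-6.01), an activator of Cdk5, with 0, 4.12 and 22.3 CPM against 214, 295 and 342. Then came Nrsn1 (-5.80), Ddn, Nrgn, Epop (-5.64), Camk2n2 (-5.64), the neuropeptide gene Cck (-5.62), Sncb (-5.61), Eef1a2 (-5.58), the elongation factor of neurons and muscle, and Psd (-5.58).

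After the values were seen, Gm42418 and AY036118 were singled out for known likeness to ribosomal RNA. Lars2, which was already among the genes to be named, is given with them for the same reason. Gm42418, which overlaps a ribosomal RNA repeat, had 1054, 1676 and 2810 CPM against 14452, 15699 and 20236 (-3.81), and its neighbour AY036118 was at -3.90. Lars2, the mitochondrial leucyl-tRNA synthetase, had 33.7, 84.0 and 113 CPM against 286, 511 and 737 (-3.23). Reads of these genes may include the repeats they share, so their values are uncertain.

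The comparison was repeated among barcodes with at least 3 UMIs of astrocyte markers and more of these than of any other marker list. Choroid plexus markers, Ttr among them, were among those lists, so the choice can by itself lower Ttr. These were 990 nucleus-like and 21167 mitochondria-rich barcodes over the 8 mice. The fit left out Tsc2mut/mut replicate 4, which had 4 of the 990. This rule kept 48.3% of nucleus-like and 73.4% of mitochondria-rich barcodes and does not fix cell type on the mitochondria-rich side. Astrocyte markers were 1.396% of free RNA, taken with its limits as in the next paragraph. RNA of that make-up alone would give 6.51 to 8.68 such UMIs at the median depth of a mitochondria-rich pool, 466 to 622 UMIs outside the mt- genes. Of 8892 genes 2922 (32.9%) were higher and 3419 (38.5%) lower. Nuclear long noncoding RNAs were higher in 10 of 14 cases and lower in 2 (median 2.80), long-intron genes higher in 18 and lower in none (3.21), and all 79 ribosomal protein genes lower (-5.22). Malat1 had a log2 fold change of 5.46 and Rplp1 of -5.51. Gpc5, at 5.50, is itself one of the markers that chose these barcodes, so its value is not read as a result. It also counts among the long-intron genes. Of 295 long noncoding genes 58.6% were higher and 30.5% lower. Values for dendritic and myelin mRNAs are not read here, since choosing barcodes by astrocyte markers can by itself lower them in the nucleus-like pool.

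Barcodes with 10% to under 40% of mt- UMIs lay between the 2 pools. Against the mitochondria-rich pool, 2090 of 9202 genes (22.7%) were higher there and 1326 (14.4%) lower, long-intron genes in 15 of 22 cases higher and ribosomal protein genes in 77 of 79 lower. For 5334 of the 6076 genes called in the main comparison (87.8%), the middle pool's level lay between those of the other 2. The log2 profile of the mitochondria-rich pool had a Pearson r across 10043 genes of 0.839, 0.968 and 0.988 (lowest, median and highest mouse) with the free RNA of its library, taken as the 20000 barcodes with the fewest UMIs. The nucleus-like pool had 0.448, 0.518 and 0.617 with that free RNA and 0.217, 0.404 and 0.590 with the mitochondria-rich pool. Of the 60000 barcodes of a library, 7670 to 50931 had 100 to under 300 genes and 40% or more of mt- UMIs. In the libraries with the most of these, the 20000 barcodes include some of them. Free RNA is therefore not a separate reference for the mitochondria-rich pool, and the part of such barcodes in their likeness was not tested. Ribosomal protein genes made up 22.7% of free RNA, 23.1% of the mitochondria-rich pool and 1.26% of the nucleus-like one without Ttr-rich barcodes, and Malat1 0.219%, 0.0803% and 3.90%.

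Genotype was compared last, as a difference between the 4 Tsc2mut/mut and 4 Tsc2wt/wt mice in the nucleus-like to mitochondria-rich ratio. In edgeR's quasi-likelihood test 0 of 10043 genes (0.0%) passed an adjusted p of 0.05 (smallest 0.773), with 339 (3.38%) at an unadjusted p under 0.05, and DESeq2 called 0 with 479 (4.77%) at that p. Without the Ttr-rich barcodes 818 of 9779 (8.36%) had an unadjusted p under 0.05, and 901 (8.62%) of 10447 also without Tsc2mut/mut replicate 4. Of the 9779, 6 passed the adjusted threshold, all with the ratio higher in Tsc2mut/mut, and they are named although they were seen only after the test. They were Cpne4, a calcium-dependent membrane-binding protein (log2 difference 2.87, adjusted p = 0.0121), Camkv (2.51), Ptprn (2.17), Caln1 (2.00), Fam135b (2.62) and Trank1 (2.67, adjusted p = 0.0381). In the nucleus-like pools without Ttr-rich barcodes, Cpne4 had a median of 9.17 CPM (0 to 11.5) in Tsc2wt/wt and 59.5 (0 to 89.0) in Tsc2mut/mut, from 27 and 211 UMIs in all. For each of the 6 genes the lowest Tsc2mut/mut pool had 0 CPM. The smallest of these pools, that of Tsc2mut/mut replicate 4 with 9 barcodes, held 31280 UMIs outside the mt- genes. A 0 at that depth does not tell whether the difference was uniform over the mice. With that mouse left out, all 6 genes passed the adjusted threshold again, at log2 differences of 2.07 to 2.95. In the nucleus-like pools without Ttr-rich barcodes, markers of striatal projection neurons summed to a median of 258 CPM (174 to 423) in Tsc2wt/wt and 494 CPM (32.0 to 536) in Tsc2mut/mut. Markers of excitatory neurons were at 178 CPM (129 to 288) and 346 CPM (128 to 528). Those of inhibitory neurons or neuroblasts went the other way, at 1282.5 CPM (949 to 1410) and 827 CPM (480 to 1499). The part of these cell types in the 6 genes was not tested.

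The nucleus-like share of kept barcodes was 7.04% ± 2.09 (SD, n = 4) in Tsc2wt/wt and 4.87% ± 1.56 (SD, n = 4) in Tsc2mut/mut mice. The ranges, 4.79% to 9.57% and 3.23% to 6.99%, overlapped (two-sided exact permutation p = 0.143, adjusted over both pools 0.286). The mitochondria-rich share was 77.6% ± 2.69 and 76.6% ± 5.06 (SD, n = 4 each, exact permutation p = 0.714, adjusted 0.714). With 4 mice against 4 the smallest p these 70 assignments can give is 0.0286.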

How the data were processed

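The deposited matrices hold whole UMI counts per gene and barcode, which the authors made with Cell Ranger 7.0.1 (file headers) on GRCm38 (mm10), forcing 60000 barcodes per library and applying no normalization. The submitters' processing notes also name Seurat 4. By default this Cell Ranger version counts reads in introns, and the sources used here do not say that this was changed. No cell type annotation was used and no doublet caller was run. Doublets were gated out at the sort, and removal of the top 5% of barcodes by UMIs was an alternative.

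Sums per mouse and pool, without mt- genes, were tested with edgeR 4.0.16 in R 4.3.3: filterByExpr, TMM scaling and glmQLFTest with mouse as a block, 16 sums from 8 mice, Benjamini-Hochberg adjustment over all tested genes, and calls at adjusted p under 0.05 and at least 2-fold. The genotype test was the interaction of pool and genotype in the same kind of fit. DESeq2 1.42.0 was an alternative. Shares of barcodes were compared by exact permutation with SciPy 1.17.1 in Python 3.11.15. The pipeline was tested on simulated data. CPM shown are scaled to the summed non-mt UMIs, whereas fold changes use TMM. Precision is limited by 4 mice per genotype and by 131 to 457 nucleus-like barcodes per mouse, and the spread is that between mice of 1 library each.

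The members and gene lists were chosen with earlier results of these data known. The genes named were the list members and the 10 largest fold changes in each direction among called genes with the same direction in all 8 mice and at least 50 CPM in a pool (1157 higher and 1208 lower qualified). Of 32285 identifiers 32235 were placed on GENCODE M21 (GRCm38), and 38 symbols belong to more than 1 identifier. Promoter windows are from RefSeq (GRCm38.p6). Leading genes without Ttr-rich barcodes and the 6 genotype genes were named after their values were seen. Alternatives were other scaling, filters, limits, pools, barcode depths and tools, each mouse left out, and leaving out Ttr-rich barcodes (at least 1% Ttr, set after seeing the data). Use of strand in counting is not described in the sources used here, so overlapping antisense pairs such as Xist and Tsix are uncertain. Single values of some list members are not reported here, though the list counts and medians include them.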

Additional observations from a re-analysis of the deposited data

Results flagged for a closer look

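In each of 2 genotypes, the log2 ratio of nucleus-like to mitochondria-rich CPM (each plus 1) of 50 named genes and the shares of barcodes in both pools were screened for a mouse far from the other 3 of its genotype. Of 104 groups tested 13 had one, and chance flags about 1 in 20 groups. In 8 of the 13 it was Tsc2mut/mut replicate 4, whose nucleus-like pool was 126 Ttr-rich barcodes of 135. That mouse had Gpc5 at 1.19 against 5.16 to 5.47 in the other 3, Lsamp at 0.73 against 4.76 to 5.12, Son at 0.55 against 2.10 to 2.32, Luc7l2 at 0.15 against 2.43 to 2.81 and Snhg11 at -3.95 against 2.75 to 4.13. It also had Mbp at -3.50 against -2.51 to -2.43, Clu at 0.11 against -1.81 to -1.69 and Apoe at -1.37 against -2.60 to -2.52.

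The other 5 were spread over the mice. In Tsc2wt/wt replicate 1 the potassium channel gene Kcnj13, whose ratio rests on few mitochondria-rich counts, was at 8.43 against 5.11 to 5.51, and in Tsc2wt/wt replicate 3 Kcnq1ot1 was at 7.52 against 5.41 to 5.56. In Tsc2wt/wt replicate 2 Nrgn was at -4.22 against -5.91 to -5.84 and Aldoc at -3.56 against -4.85 to -4.66. Camk2n2 was at -5.58 in Tsc2mut/mut replicate 2 against -4.52 to -4.46.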

How the results depend on the processing

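Alternatives with the Ttr-rich barcodes left out, with astrocyte markers, or with other pools were in part chosen after seeing the data. The main counts were 3037 genes higher and 3039 lower, of 10043 tested. Counts moved by over 1.5 times in 6 settings, in part because the number of genes tested changed as well. These were no filter on low counts (5214 and 5050 of 23236 tested) and totals as scaling (1984 lower of 10043). With barcodes of 500 to 1500 UMIs outside the mt- genes only, 878 of 4230 were higher and 2151 lower, from 1 to 36 nucleus-like barcodes per mouse. With at least 500 genes 2013 of 7453 were lower. The middle pool in place of the nucleus-like one gave 1326 lower of 9202. In place of the mitochondria-rich one it gave 573 higher and 1213 lower of 9739. Leaving out 1 mouse gave 2846 to 3492 higher and 2860 to 3634 lower. Without the mouse block 3121 were higher and 2809 lower. Replicate numbers did not pair mice across genotypes (correlations of deviations -0.60, 0.01, 0.30 and 0.11), and the interaction fitted with a replicate block called 0 genes. The interaction was also fitted with totals as scaling, DESeq2, both other limits on genes, limits of 5% and 50%, and each mouse left out, and called 0 genes in these. It called genes with no filter (5 genes: Cpne4, Flt1, Gm32647, Ebf1 and Nell1), no Ttr-rich barcodes (6) and no Ttr-rich barcodes and no Tsc2mut/mut replicate 4 (7, with Gm47283 added).

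The genotype difference in the nucleus-like share (-2.17 percentage points) was 5.69 with at least 500 genes, and -2.92 to -1.33 with 1 mouse left out. That in the mitochondria-rich share (-1.03) was 2.56 with at least 200 genes, -15.2 with limits of 5% and 50%, -22.4 with at least 500 genes, and -2.64 to 0.81 with 1 mouse left out. Ttr turned to -2.33 with 500 to 1500 UMIs outside the mt- genes, and to -3.19 and -3.41 among astrocyte-marker barcodes of 8 and 7 mice. It was -3.14 without Ttr-rich barcodes, -2.38 with totals as scaling as well, and -3.32 also without Tsc2mut/mut replicate 4. In the fits without Ttr-rich barcodes Ttr was bound to fall, since it chose the barcodes left out. Choosing astrocyte-marker barcodes can lower Ttr by itself too, since barcodes with as many or more choroid plexus UMIs were left out. The myelin median turned to -0.0517, -0.67, -0.96, -2.64, -0.37 and -2.86 (no filter, 5% and 50%, 500 to 1500 UMIs outside the mt- genes, astrocyte-marker barcodes of 8 mice, middle pool as second pool, astrocyte-marker barcodes of 7 mice), and the TSC and mTORC1 median to 0.0093 (middle pool as second pool) and 0.0483 (no Ttr-rich barcodes, totals). The cause was not tested. Of all alternative values, 1118 of 1124 for 50 named genes kept their direction, 1102 of them also their call, and 280 of 288 for 12 list medians kept their direction. Some named genes were picked for large fold changes of the same direction in all 8 mice, and most fits share barcodes. These counts therefore follow in part from the choice of genes. The comparison in barcodes with 100 to under 300 genes was not run, since the nucleus-like sums of 4 libraries held 0 UMIs outside the mt- genes. Depth limits genes with few counts in the nucleus-like pools, the smallest of which held 538156 UMIs outside the mt- genes.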
